A study of Mus musculus with 3 samples.

Results

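The proteasome subunit genes were taken as every gene in the count tables whose mouse symbol starts with Psma, Psmb, Psmc, Psmd, Psme, Psmf or Psmg followed by a number. The 3 immunoproteasome subunits Psmb8, Psmb9 and Psmb10 and symbols holding -ps were left out. This gave 47 genes of 22457. RNA with poly(A) tails was sequenced in 3 libraries of primary regulatory T cells, a class of CD4 lymphocytes defined by the transcription factor Foxp3 that dampens immune responses, from an adult male mouse source aged 4 months. The labels name no strain, tissue, genotype or treatment. They call the libraries technical replicates 1, 2 and 3 of 1 biological replicate, so there is a single group, no comparison between conditions, and every SD and p-value below measures the spread between libraries and not between animals.

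The proteasome is the protease that degrades proteins tagged with ubiquitin. Its 20S core is a barrel of stacked rings of alpha subunits (Psma genes), which form the gate, and beta subunits (Psmb genes), of which Psmb5, Psmb6 and Psmb7 carry the active sites. The 19S particle caps the core. Its ATPases (Psmc genes) unfold the substrate and open the gate, and its non-ATPase subunits (most Psmd genes) bind and remove ubiquitin. Psme genes encode other activators, Psmf1 an inhibitor, and Psmg genes chaperones that assemble the core. In lymphocytes, immunosubunits can replace the active beta subunits, which changes the peptides made for presentation on MHC class I.

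Library totals were 3316275, 3079004 and 2782259 counts in libraries 1, 2 and 3. Foxp3 had 448, 447 and 407 counts, and the Treg markers Il2ra, Ctla4, Ikzf2, Cd4 and Cd3e each had more than Foxp3 in every library. Markers of other cells were not equal between the libraries. The 6 B cell markers summed to 55.8, 131 and 163 CPM (counts scaled to a common library total of 1e+06), and the 6 monocyte and macrophage markers to 2.71, 32.5 and 10.8 CPM. Proteasome genes are used by all of these cells.

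Nearly all proteasome genes were present. Of the 47, 45 reached 1 CPM in each library, against 47.3% of all genes. Together they held 33626, 31433 and 30456 counts, or 1.01%, 1.02% and 1.09% of the counts. Levels of different genes are compared per length, as CPM per kb of the longest coding sequence, and are given as mean ± SD over the 3 libraries. On this scale the median over the 47 genes was 214, 231 and 258 CPM per kb in libraries 1, 2 and 3 (mean 235 ± 22.1), and over the 45 detected ones 240 ± 23.4. The median over all 10542 detected coding genes was 31.7 ± 0.255. Of the 45 detected members, 37 stood in the upper 25% of detected coding genes. The 8 below it were Psme4, Psmd3, Psmc3ip, Psmg3, Psmg1, Psmd9, Psme2b and Psme3, so that of the 31 genes of the 20S core and the 19S particle only Psmd3 was among them.

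**Figure D1:**
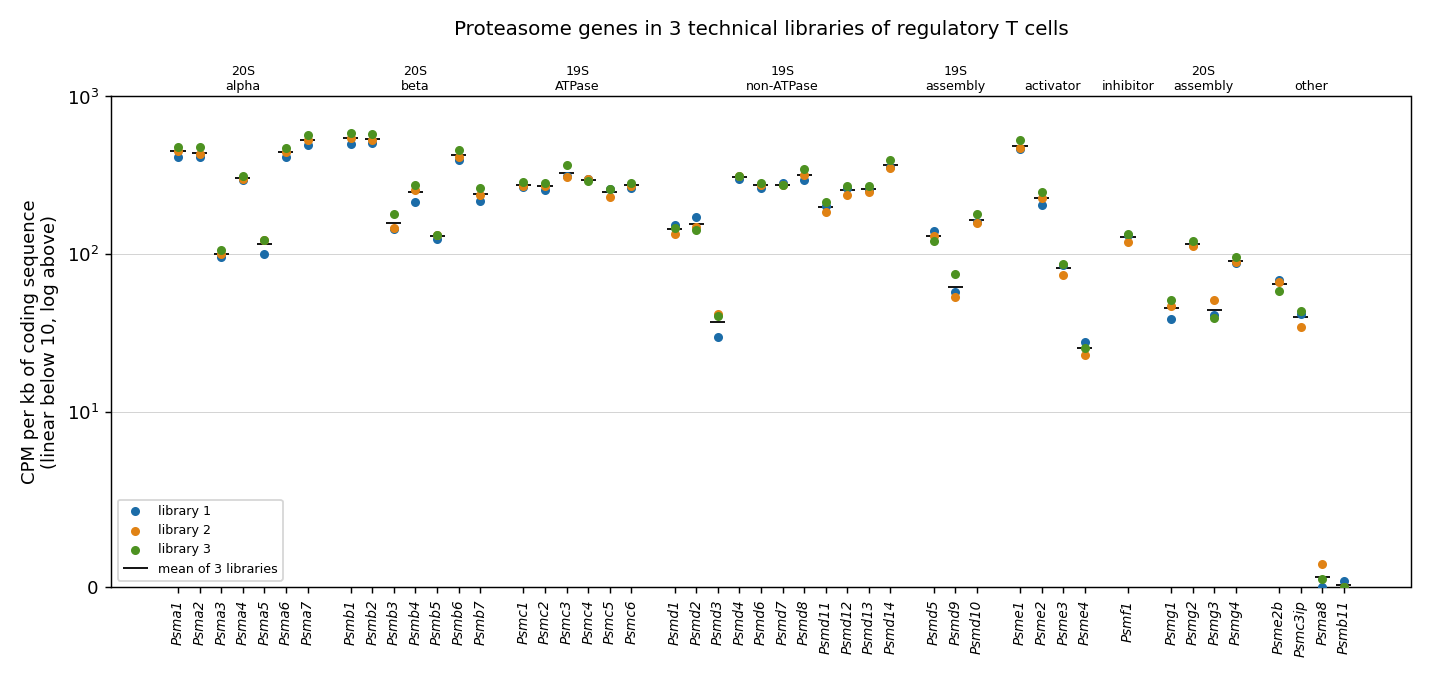
CPM per kb of coding sequence (y axis, linear below 10 and logarithmic above) of the 47 proteasome genes (x axis, grouped by class). Coloured points are the 3 libraries and black lines their means. The 6 ATPase genes lie between 249 and 329, the 14 core genes spread from 100.8 to 545, and Psma8 and Psmb11 lie near 0.

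The alpha genes, all 7 of them detected, had a class median of 438 ± 30.3 CPM per kb. Psma7 (ENSMUSG00000027566, chromosome 2, 180036374 to 180042433, minus strand, GRCm38) was the highest, with 1214, 1211 and 1174 counts and 529 ± 37.6 CPM per kb. Psma3 (ENSMUSG00000060073, chromosome 12, 70974621 to 70996347, plus strand) was the lowest, with 244, 237 and 225 counts and 100.8 ± 4.77 CPM per kb. The ratio of Psma7 to Psma3 per coding kb was 5.12, 5.25 and 5.37 in libraries 1, 2 and 3, so the libraries differed little in it. Psma1 (448 ± 33.8), Psma6 (442 ± 28.9) and Psma2 (441 ± 35.8) lay within one another's SD. Psma4 had 303 ± 11.1 CPM per kb. Psma5 had 116 ± 13.1, close to Psma3. The subunits of an alpha ring are present in equal numbers in the assembled particle. Per coding kb, these counts gave a high set (Psma1, Psma2, Psma6 and Psma7) and a low set (Psma3 and Psma5), with Psma4 between them. The levels of the low set are uncertain because of shared sequence (below).

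The 7 beta genes were also all detected (median 250 ± 29.1 CPM per kb). Psmb1 (ENSMUSG00000014769, chromosome 17, 15475021 to 15499751, minus strand), a subunit without an active site, had 1200, 1214 and 1169 counts. It was the highest of the class at 545 ± 40.6 CPM per kb, with Psmb2 at 538 ± 37.4 inside its SD. Psmb5 (ENSMUSG00000022193, chromosome 14, 54614119 to 54618022, minus strand), which carries the chymotrypsin-like site, was the lowest, with 327, 325 and 293 counts and 130 ± 4.98 CPM per kb. Psmb1 exceeded Psmb5 by 4.18 ± 0.186 fold. Between them lay Psmb6 (424 ± 30.6), which carries the caspase-like site, Psmb4 (249 ± 30.98), Psmb7 (240 ± 23.4), which carries the trypsin-like site, and Psmb3 (157 ± 19.8).

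The low core genes were those whose coding sequence recurs elsewhere in the transcriptome. Psma3 shared 91.3% of its coding 31-mers (stretches of 31 bases) with transcripts of other genes, Psma5 88.9%, Psmb3 84.1% and Psmb5 84.0%, and these were the 4 lowest of the 14 core genes by CPM per kb. The main sharers were pseudogenes for which no counts were found by symbol. Among them were Gm13835, which held 86.0% of the 31-mers of Psma3, and Gm3375, which held 69.9% of those of Psmb5. Over the 5 core genes sharing 50% or more, Psma4 included, the median was 130 CPM per kb. It was 442 over the 9 sharing less, of which Psmb7 (29.2% shared, chiefly with Nek6, a gene on the opposite strand whose exons overlap it) and Psmb4 (0% shared) were the lowest. How the authors counted reads with several matches is not given in the sources used here, so the levels of Psma3, Psma5, Psmb3 and Psmb5 are uncertain.

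**Figure D2:**
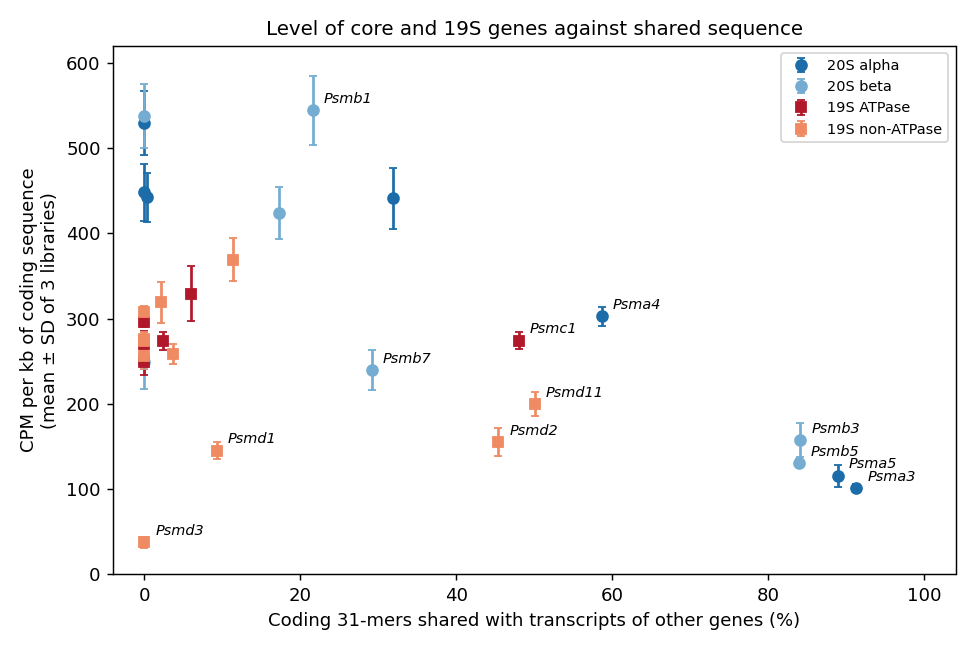
CPM per kb of coding sequence (y axis, mean ± SD of 3 libraries) of the 31 core and 19S genes against the share of their coding 31-mers found in transcripts of other genes (x axis, percent). Circles are core genes and squares 19S genes. Psma3, Psma5, Psmb3 and Psmb5 lie at 84.0% or more and at 157 CPM per kb or less, while Psmd3 is low with 0% shared.

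Dividing by the part of the coding sequence whose 31-mers occur in no other gene, counted as 31-mer positions, changed the order. On that scale, tried after the sharing had been seen, Psma3 had 1205 ± 57.0, Psma5 1086 ± 123, Psmb3 1039 ± 131 and Psmb5 846 ± 32.3 CPM per unshared kb. These became the 4 highest of the core genes, against 466 ± 35.1 for Psma1 and 552 ± 39.1 for Psma7, which share nothing. Their unshared parts are short, 64 bases for Psma3 and 122 for Psmb5, and untranslated parts of the messages are not in this length. Neither scale gave the alpha and beta genes a common level. Between the highest and lowest core gene the ratio was 5.40 per coding kb and 4.66 per unshared kb.

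The 3 constitutive active-site genes can be set beside the immunosubunit that replaces each. Psmb9, which takes the place of Psmb6, had 999, 1018 and 925 counts against 942, 915 and 909, and 1.16 ± 0.0517 times its level per coding kb. Psmb10, the counterpart of Psmb7, had 1202, 1156 and 1137 counts against 600, 607 and 611, and a ratio of 1.95 ± 0.0741. Psmb8, the counterpart of Psmb5, had 1572, 1594 and 1558 counts against 327, 325 and 293, and a ratio of 4.79 ± 0.259. Thus the immunosubunit was the higher of each pair in all 3 libraries per coding kb, and the mean difference over the pairs was 1.14, 1.15 and 1.13 on the scale of log2(CPM per kb + 1) (1.14 ± 0.01). This order depends on the length used. Per unshared kb, the ratios were 0.960 ± 0.0429 for Psmb9 to Psmb6, 1.38 ± 0.0525 for Psmb10 to Psmb7 and 0.915 ± 0.0495 for Psmb8 to Psmb5, so that only Psmb10 stayed above its counterpart in every library, and the mean log2 difference was 0.09. Per kb of the transcript with the longest coding sequence, Psmb9 was below Psmb6 (0.628 ± 0.0281), while Psmb10 and Psmb8 remained above Psmb7 and Psmb5 (1.70 ± 0.0646 and 2.77 ± 0.150).

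**Figure D3:**
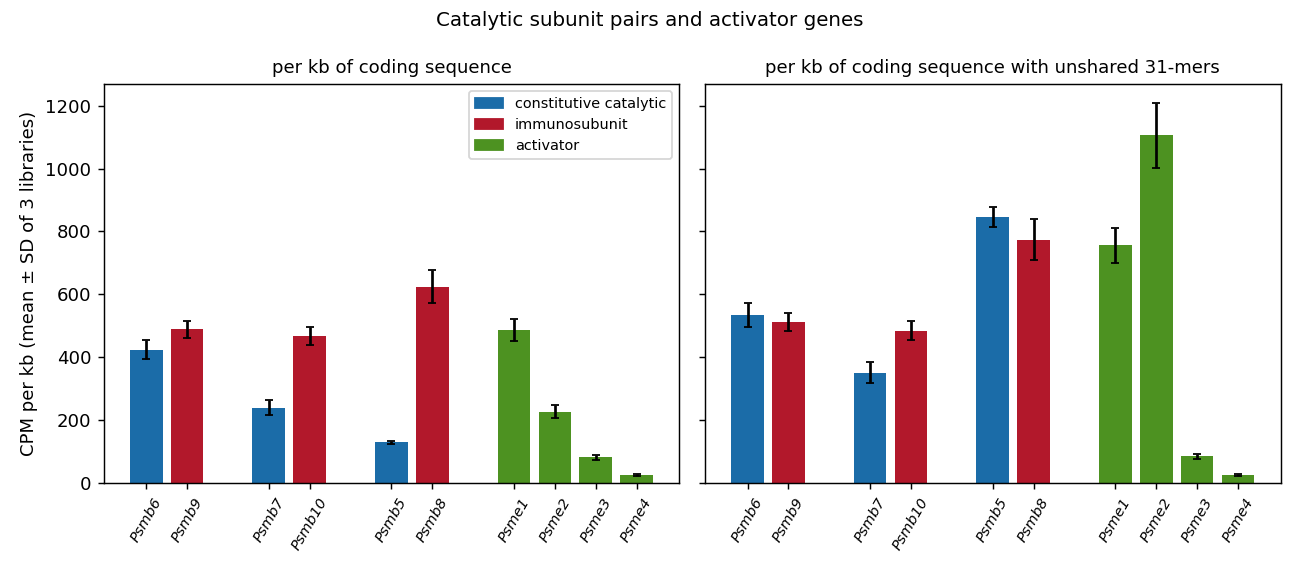
Levels of the 3 pairs of constitutive and immunoproteasome catalytic genes and of the 4 activator genes, per kb of coding sequence (left) and per kb of coding sequence with unshared 31-mers (right). Bars are means and whiskers the SD of 3 libraries. Psmb8 stands 4.79 times above Psmb5 on the left and slightly below it on the right, while Psmb10 is above Psmb7 and Psme1 above Psme3 in both.

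The RefSeq promoter windows (GRCm38.p6) of the active-site genes are of interest because Nfe2l1, the transcription factor that raises proteasome genes when proteasome activity falls, reads the antioxidant response element. Its core was searched as TGACNNNGC on both strands in the 250 bases before each gene start. Of the 47 genes, 39 had a window, and 5 of them (12.8%) held a match: Psmb5, Psmb6, Psmc6, Psmd9 and Psmd12. The share was 11.5% over all 27025 genes with a window and 14.0% over the 7942 of them with 30 or more summed counts here. Proteasome promoters thus held these letters about as often as other promoters. Among 24 proteasome-associated genes outside the rule that had a window, 7 (29.2%) held one. Psmb5 and Psmb6 were the core genes with a match, at 47 and 9 bases before the start, and that of Psmc6 lies 227 bases before it on the other strand. They are shown 5′ to 3′ along the strand that reads the motif, with the match in capitals, at chr14:54618022-54618054 (minus strand), chr11:70525336-70525356 (plus strand) and chr14:45329585-45329617 (minus strand).
Psmb5: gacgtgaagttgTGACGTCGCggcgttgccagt
Psmb6: gactaaagagagTGACGGAGC
Psmc6: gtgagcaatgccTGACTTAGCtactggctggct
The 4 core and 19S genes with a match had a median of 265 CPM per kb, beside 274 for the 21 with a window and no match. CCAAT stood in 35.9% of the members' windows and in 37.5% of all, and GGGCGG, the letters of the GC box, in 53.8% against 35.4% of all and 64.6% of those with 30 or more counts. A match is a description of letters and not evidence of binding. Psma8, Psmb1, Psmb2, Psmb7, Psmc3, Psmd3, Psmd7 and Psmg2 had no window in the table used.

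The 6 ATPase genes of the 19S particle lay closest together of the classes with more than 1 gene. Each was detected, and the class median was 274 ± 10.02 CPM per kb. Psmc3 was the highest, with 1406, 1281 and 1378 counts and 329 ± 32.3 CPM per kb, and Psmc5 the lowest, with 1045, 867 and 875 counts and 249 ± 15.7, a ratio of 1.32 between these means. Psmc1 (274 ± 9.94), Psmc6 (274 ± 10.03) and Psmc2 (270 ± 14.9) lay within one another's SD, and Psmc4 had 296 ± 5.41. Only Psmc1, at 48.0%, shared more than 5.97% of its 31-mers with other genes.

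The 11 non-ATPase genes were all detected (median 261 ± 11.2 CPM per kb) and less even. Psmd14 (ENSMUSG00000026914, chromosome 2, 61711694 to 61800376, plus strand), the metalloprotease that removes ubiquitin chains, had 1100, 1008 and 1030 counts and stood highest at 369 ± 25.4 CPM per kb. Its partner in the lid, Psmd7, had 897, 809 and 732 counts and 276 ± 4.54. The ubiquitin receptor Psmd4 had 1129, 1091 and 989 counts and 308 ± 7.36. The other genes of the class at 199 or more were Psmd8 (319 ± 24.2), Psmd6 (274 ± 11.03), Psmd13 (258 ± 11.9), Psmd12 (257 ± 15.98) and Psmd11 (199 ± 14.2). The long scaffold genes Psmd2 and Psmd1, which hold the base together, had 155 ± 16.2 and 145 ± 9.88 CPM per kb. Their raw counts were nevertheless the highest of all members in library 1. They were 1566, 1245 and 1084 for Psmd2 and 1461, 1184 and 1166 for Psmd1. Psmd2 shared 45.4% of its 31-mers with other genes, Psmd11 50.1% and Psmd1 9.26%. Their means per unshared kb were 287, 409 and 162 CPM, where the 19S median was 287. The low levels of Psmd2 and Psmd11 per coding kb are therefore uncertain, while Psmd1 was low on both scales.

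Psmd3 (ENSMUSG00000017221, chromosome 11, 98682554 to 98695979, plus strand), a lid scaffold subunit, stood apart from the other 19S genes. It had 158, 203 and 179 counts, or 29.96, 41.5 and 40.5 CPM per kb (37.3 ± 6.37). The next lowest 19S gene, Psmd1, lay between 134.5 and 154 CPM per kb, so the libraries of these genes did not overlap. Psmd14 was higher than Psmd3 by 9.89 fold in the means. Psmd3 shared no 31-mer with another gene, and its exons overlapped no other gene of the tables. Its coding sequence was 57.4% G or C, the most of the 25 core and 19S genes sharing under 50%, whose median was 50.2%. Psmd8, at 55.9%, had 319 ± 24.2 CPM per kb, and over these 25 genes the rank correlation of G or C content with level was -0.13 (a description across genes, which are not independent).

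Set against each other as classes, the 14 core genes and the 17 genes of the 19S particle gave no order that held across length scales. Per coding kb, the core median exceeded the 19S median by 0.39, 0.38 and 0.42 in libraries 1, 2 and 3 on the scale of log2(CPM per kb + 1) (0.40 ± 0.02). Without the genes that share 50% or more of their 31-mers the difference was 0.70. Per kb of merged exons it was -0.22 and per kb of the transcript -0.19, so the sign followed the length and not the libraries.

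The 7 members that encode assembly chaperones all lay below the lowest ATPase gene (249 CPM per kb), though Psmd10 was above Psma3, Psma5, Psmb5, Psmb3, Psmd1, Psmd2 and Psmd3. The 19S chaperones Psmd10 (gankyrin), Psmd5 and Psmd9 had 166 ± 11.8, 131 ± 9.45 and 62.0 ± 10.996 CPM per kb. The core chaperones had a class median of 69.5 ± 4.35. Psmg2 was the highest of them, with 301, 276 and 266 counts and 116 ± 4.00 CPM per kb, followed by Psmg4 (91.2 ± 3.79) and Psmg1 (45.6 ± 6.11). Psmg3 was the lowest, with 50, 58 and 40 counts and 44.0 ± 6.55, and it shared 55.4% of its 31-mers with Gm26938, an overlapping gene listed with 0 counts. Psmg1 and Psmg2 proteins act as one pair and Psmg3 and Psmg4 as another, and per coding kb the genes of each pair differed by more than their SDs. Per unshared kb, Psmg3 had 107 ± 15.99 and Psmg4 99.2 ± 4.13, within the SD of Psmg3, and Psmg1 was the lowest of the 4 at 47.2 ± 6.33.

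Activator genes covered the widest range of any class with all members detected. Psme1 (PA28 alpha; chromosome 14, 55578123 to 55581529, plus strand), an interferon-inducible cap of the core, had 1144, 1083 and 1098 counts and 487 ± 36.1 CPM per kb. Psme2 (PA28 beta), its partner in the same ring, had 487, 504 and 493 counts and 227 ± 21.2. Psme3 (PA28 gamma), which forms a nuclear cap, had 215, 173 and 183 counts and 81.7 ± 6.93. Psme4 (PA200), a large single-chain cap, had 512, 388 and 390 counts over 5529 coding bases and 25.4 ± 2.57 CPM per kb. The 3 libraries of each gene lay apart from those of the next gene in this order. The mean of Psme1 and Psme2 exceeded Psme3 by 1.84, 2.14 and 2.05 on the log2(CPM per kb + 1) scale (2.01 ± 0.15), and by more on each of the other length scales tried. Psme1 stood above Psme2 by 2.15 ± 0.0969 fold per coding kb, but at 0.685 ± 0.0308 of it per unshared kb, and Psme2 shared 78.6% of its 31-mers. It shared them with Psme2b, a near copy with 163, 147 and 117 counts and 64.6 ± 5.24 CPM per kb, so counts of Psme2 and Psme2b are uncertain. Psmf1 (PI31), an inhibitor of the core in the test tube, had 358, 300 and 303 counts and 129 ± 7.83 CPM per kb.

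The genes of specialised proteasomes were at or near the limit of detection. Psma8, the alpha subunit of the testis, had 0, 3 and 1 counts, with exact 95% Poisson intervals reaching 1.11, 2.85 and 2.00 CPM. Psmb11, the beta subunit of thymic cortical epithelium, had 1, 0 and 0 counts, with intervals reaching 1.68, 1.198 and 1.33 CPM. It lies 3410 bases from Psmb5 on chromosome 14, and the neighbours differed in that Psmb5 had 293 or more counts in every library. Psme1 and Psme2 are likewise neighbours, 5911 bases apart. Psmc3ip, which carries the prefix but acts in meiotic recombination and is no subunit, had 90, 69 and 79 counts and 39.9 ± 4.85 CPM per kb. Its exons overlap those of Mlx on the other strand over 21.2% of their length, and Mlx had 280, 247 and 221 counts, so without stated strand use its count is uncertain.

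The counts of 17 of the 45 members tested departed from the proportions of the 3 library totals by more than Poisson sampling allows. The share over all genes tested was 22.7%. The test was a chi-square test of a gene's 3 counts against the library totals, adjusted by Benjamini and Hochberg's method across 10043 genes whose counts summed to at least 30. The direction was mostly shared. Of these 17, 13 had their highest CPM in library 3 (8.04% of all genes tested were called with that order), 3 in library 1 (Psmd1, Psmd2 and Psme4; background 7.61%) and 1 in library 2 (Psmd3; background 7.03%). Library 3 was the one with the smallest total. With the spread between libraries estimated by edgeR (quasi-likelihood, each library against the other 2), 0 of the 45 and 0.438% of all genes tested were called. For each gene the smallest of the 3 p-values was used, which lets more genes pass than a single test would. At an unadjusted p under 0.05 edgeR then counted 1 member, Psmd3, named after its value was seen. The share over all genes tested was 14.1%, which cannot be set against the threshold of a single test. Scaled by DESeq2's size factors, the chi-square test called 7, and without library 1 or library 3 it called 4 or 5. The share of all genes called under these settings is not given here, so these counts have no background.

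Members with the most counts per coding base were called most often, while the share called did not fall steadily with density. Library 1 had 1.19 times the total of library 3. At 1 or more counts per coding base, counts of members scarcely moved with the total. Psmb1 had 1200, 1214 and 1169 counts, Psma1 1083, 1090 and 1057, Psma7 1214, 1211 and 1174, and Psma2 958, 931 and 939. Their counts in libraries 1 and 3 were thus nearly equal, and in CPM, where a constant count is divided by a smaller total, all of them were highest in library 3. Among the 10 members at this density the median ratio of the count in library 1 to that in library 3 was 1.04, the range was 1.02 to 1.07, and 9 were called, where 40.3% of all genes at that density were. All genes at that density had a median ratio of 1.06. At 0.5 to 1 counts per base the median ratio was 1.11 for 17 members, of which 3 were called (background 27.1%), and under 0.5 it was 1.14 for 18 members, of which 5 were called (background 21.3%). All genes under 0.5 had a median ratio of 1.2. The bins also differed in the members' median summed counts, which were 3184, 2787 and 734.5 from the densest to the least dense.

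**Figure D4:**
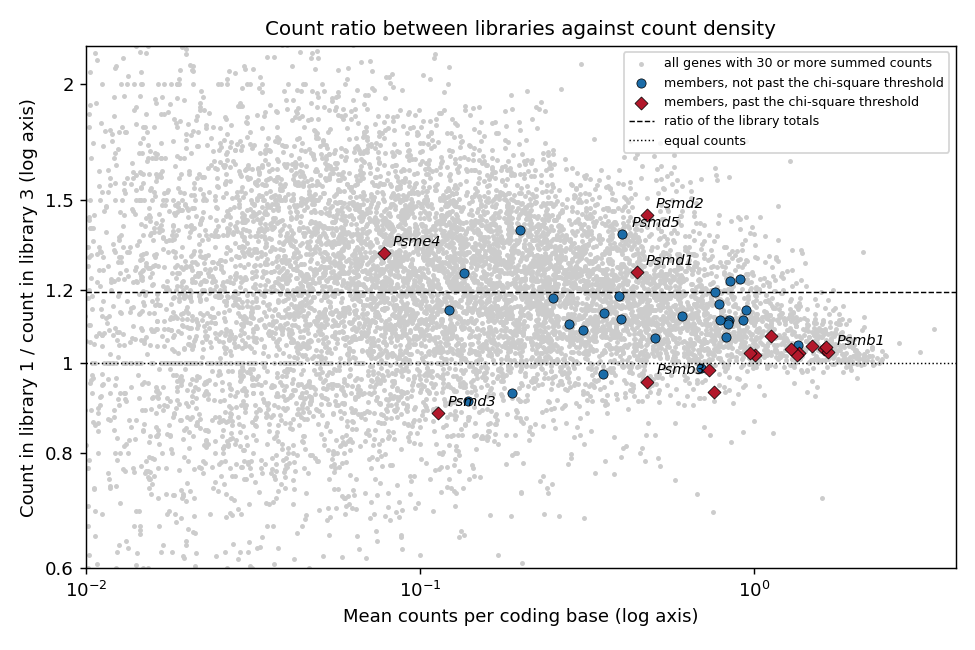
Ratio of the count in library 1 to that in library 3 (y axis, log) against mean counts per coding base (x axis, log) for all genes with 30 or more summed counts (grey) and the 45 detected proteasome genes (blue circles, or red diamonds where past the chi-square threshold). Members at 1 or more counts per base lie at 1.02 to 1.07, near equal counts (dotted) and below the ratio of totals of 1.19 (dashed). Grey points outside the axis limits are not drawn.

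Calls at lower density went both ways. Psmd2, with 472, 404 and 390 CPM, was highest in library 1 (adjusted p = 1.69e-05 by the chi-square test), with a count ratio of 1.44 between libraries 1 and 3. Psmd1 (441, 385 and 419 CPM, adjusted p = 0.0152) and Psme4 (154, 126 and 140 CPM, adjusted p = 0.0468) were also highest there. Psmd3, with 47.6, 65.9 and 64.3 CPM, was lowest in library 1 (adjusted p = 0.0225 by the chi-square test). Psmb4 (170, 204 and 217 CPM, adjusted p = 0.00103) and Psmb3 (88.7, 90.6 and 111 CPM, adjusted p = 0.0484) were highest in library 3, and even their raw counts there exceeded those of library 1 despite the smaller total. Library 1 also had the lowest sums of B cell and of monocyte and macrophage markers (above). The sums of plasma cell markers (2.41, 4.55 and 25.9 CPM) and erythroid markers (6.03, 9.42 and 23.4 CPM) were highest in library 3, like the B cell sum. There 13 of the 17 called members had their highest CPM. The monocyte and macrophage sum was highest in library 2 (32.5 CPM). Not every marker followed its sum. Jchain held 68 of the 72 plasma cell counts in library 3, while Tnfrsf17 had 1, 0 and 0. Alas2, an erythroid marker, had 14, 15 and 15 counts. Ms4a1, a B cell marker, had 22.1 CPM in library 2 and 20.8 in library 3. The part of those cells in the differences of members between libraries was not tested.

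Among members at 1 or more counts per base, the smallest p was that of Psmc3 (424, 416 and 495 CPM, adjusted p = 8.70e-05 by the chi-square test), whose exons overlap Slc39a13 on the other strand over 8.25% of their length. Slc39a13 had 87, 100 and 74 counts. Against totals made of the genes under 0.5 counts per coding base alone, 21 of the 45 members were called and 24.3% of all genes tested, and 18 of those 21 had their highest CPM in library 3. The remaining calls by the main test, Psmb2, Psmb6, Psmb7, Psmd8, Psmd14 and Psme1, had adjusted p-values from 0.0182 to 0.0431 and count ratios between libraries 1 and 3 from 0.982 to 1.07.

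Other genes of proteasome function were taken from a list of 33, of which 32 were measured and Paaf1 was not analysed here. Of the 32, 31 were detected, and the median was 47.3 CPM per kb. The 10 assembly factors and 19S partners of the list had a median of 99.4 CPM per kb and ranged from 11.4 (Akirin2) to that of Sem1. Sem1, a small lid subunit, had 450, 450 and 443 counts over 210 coding bases and 700 ± 56.1 CPM per kb, and Pomp, the chaperone that matures the core, had 734, 711 and 717 counts and 559 ± 44.6. With Psmb8 (625 ± 51.9) and Psmb9 (489 ± 26.7) they were the 4 highest of the list. The deubiquitinases bound to the 19S particle, Uchl5 and Usp14, had 171 ± 14.1 and 135 ± 6.76 CPM per kb. Adrm1, a ubiquitin receptor, had 33.1 ± 3.23 and is uncertain, since it shared 92.2% of its 31-mers.

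Of the transcription factors and shuttles, Nfe2l1 had 323, 327 and 259 counts and 44.4 ± 3.00 CPM per kb, and the related Nfe2l2 378, 397 and 402 counts and 72.1 ± 8.52. Ddi2, the protease that activates Nfe2l1, had 6.27 ± 0.712 but shared all of its 31-mers with Rsc1a1. Among the shuttle factors, which carry ubiquitin-tagged proteins to the proteasome, Rad23b had 24.5 ± 8.13, Ubqln1 15.4 ± 0.672 and Ubqln2 2.71 ± 0.959 CPM per kb. Uba1, the main ubiquitin-activating enzyme, had 217 ± 30.5 CPM per kb and Uba6 50.2 ± 8.28. The ubiquitin gene Rps27a, with 17, 22 and 36 counts, shared 100% of its 31-mers with other genes, so its count is uncertain.

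Of the 31 list genes tested, 8 differed between the libraries by the chi-square test, near the 22.7% of all genes tested. Against the totals of genes under 0.5 counts per coding base it was 14, where 24.3% of all genes tested were called. By edgeR's quasi-likelihood test it was 0 (background 0.438%), with 6 where the smallest of the 3 unadjusted p-values was under 0.05 (background 14.1%). Ecpas and Uba6 were highest in library 1, Rad23b and Uba1 in library 2, and Nfe2l2, Psmb8, Rps27a and Zfand5 in library 3. Uba1 had 2392, 2350 and 1609 counts (adjusted p = 2.45e-15 by the chi-square test), with library 3 lowest. Rad23b had 63, 116 and 98 counts (adjusted p = 0.000337), with library 1 lowest.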

How the data were processed

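The authors deposited whole-number counts per gene without scaling, 1 table per library, made per the notes deposited with the tables from alignments to mm10 with GENCODE M4. Aligner, counter, strand use and duplicate handling were not stated in the labels or notes. Symbols, positions and lengths came from GENCODE M21 (GRCm38, the same assembly); 22195 of 22457 identifiers matched, and the other 262 held 0.136% of the counts. The gene that RefSeq calls Psme3ip1 has another M21 symbol and is no member.

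CPM used the library total. Members were compared per kb of the longest coding sequence, with a pseudocount of 1 on log scales, and 31-mers of each coding sequence were searched on both strands of all M21 transcripts. Between libraries, counts were tested by chi-square with 2 degrees of freedom (SciPy 1.17.1, tested on simulated data) at an adjusted p of 0.05, and by edgeR 4.0.16. DESeq2 1.42.0 gave size factors. Counts near 0 were bounded by exact Poisson intervals. Intervals cover counting error only.

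Members and lists were chosen with earlier results of these data known. Genes printed with counts per library are the class extremes, undetected and differing members, catalytic and activator genes and, of the associated list, the highest, lowest and differing genes; Psma1 and others that illustrate equal counts were chosen after their values were seen. Some results are not reported here.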

Additional observations from a re-analysis of the deposited data

How the results depend on the processing

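The number of detected members was 45 at each detection limit and without any library, and the share of counts on members moved by less than its SD. The median level of members, 235 CPM per kb of coding sequence, was 84.5 per kb of merged exons, 144 per kb of transcript and 296 per unshared kb; TMM and DESeq2 scaling moved it by less than its SD. The core minus 19S difference of 0.40 became -0.22 with merged exons and -0.19 with transcripts, and was 1.10 per unshared kb, 0.70 without genes sharing 50% or more and 0.31 as a difference of means. The immunoproteasome minus constitutive difference of 1.14 was 0.49, 0.52 and 0.0919 with merged exons, transcripts and unshared sequence, and the PA28 difference of 2.01 was 2.49, 3.28 and 3.41. The transcript and unshared lengths were chosen after seeing the data. The 17 differing members became 7 with DESeq2 size factors and 0 with edgeR's quasi-likelihood test, and 4 to 16 when a library was left out: 4 without library 1, 16 without library 2 and 5 without library 3. The other settings gave 12 to 21. Shares of all genes called are given only for the main test, the totals of genes under 0.5 counts per coding base and edgeR. The counts under the remaining settings therefore have no background and are not a result about the members. Leaving out a library leaves fewer counts to test, and the cause was not tested further. No paired analysis was possible because there is 1 group. Low totals limit Psma8 and Psmb11, whose levels are bounded only by their Poisson intervals.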
